A study of Mus musculus with 2 samples.

Results

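Maf, Spi1, Irf8, Irf4, Batf3, Zeb2, Cebpb, Id2 and Zbtb46 are transcription regulators that are widely used to tell macrophages, monocytes and the types of dendritic cells apart. These 9 of the 32285 genes of the matrix were chosen by name, as known lineage regulators, with earlier results of these data known. Their levels are described here over the myeloid cells of mouse skin. The study sorted cells that carry the macrophage marker F4/80 and high MHC class II from dorsal skin of wild-type male mice aged 9 or 108 weeks, pooling 2 mice of an age for 1 droplet library. Both libraries are deposited in 1 matrix of UMI counts, in which each RNA molecule is counted once. They are told apart by a barcode suffix, 1 or 2, and which suffix belongs to which age is not given in the labels or the study's methods. The ages are therefore pooled, both suffixes are given as libraries of unknown age, and the library and the pair of mice behind it cannot be told apart. There are no replicates, so no p-value is given. After filtering, 2396 cells of suffix 1 and 1395 of suffix 2 were analysed, with median counts of 10761 and 11164 UMIs.

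In myeloid development, PU.1, the protein of Spi1, opens the genes of the whole lineage, and the factors beside it decide which branch a cell takes. Irf8 with Batf3 and Id2 drives type 1 conventional dendritic cells, which present antigen of dead cells to killer T cells. Irf4 and Zeb2 act in type 2 conventional dendritic cells, which prime helper T cells, while Maf and Cebpb act in macrophages and monocytes, and Zbtb46 marks the conventional dendritic lineage.

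The sorted cells were not all macrophages. Of 3791 analysed cells, 2039 lay in clusters with a myeloid profile, and the largest other groups were 822 fibroblast-like and 348 endothelial-like cells. After 9 B or plasmacytoid cells were set aside, 2030 myeloid cells in 18 clusters remained. None of the 9 factors was used to form or to name these clusters. By their markers 776 cells were macrophage-like, 460 monocyte-like, 218 dendritic type 2-like, 35 dendritic type 1-like and 20 mature dendritic-like. A further 326 cells in 5 clusters stayed unnamed. The 6 genes of the fibroblast list summed to between 139 CPM (UMIs per 1000000 UMIs of the group) in type 1-like and 491 CPM in macrophage-like cells, with Col1a1 on top (175 CPM in the latter), and the part of such RNA in the levels below was not tested.

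Several markers differed between the named groups. C1qa, a complement gene of macrophages, stood at 3039 CPM in the macrophage-like cells and at 56.5 CPM in the dendritic type 2-like cells. Ly6c2, the Ly6C gene of monocytes, stood at 939 CPM in the monocyte-like cells against 9.58 CPM in the macrophage-like cells, though C1qa was still at 1254 CPM there. Xcr1 and Clec9a, receptors of type 1 dendritic cells, stood at 86.4 and 94.4 CPM in the type 1-like cells, while Xcr1 was at 0 in the type 2-like cells. Ccr7, the receptor that guides dendritic cells to lymph nodes, reached 3997 CPM in the mature dendritic-like cells. No cluster could be called Langerhans-like. A cluster of 195 cells had Cd207, the langerin gene, among its leading genes, at 103 CPM. Epcam, a defining gene of Langerhans cells, stood at only 12.4 CPM there, and Hapln3 at 0. Cd207 was also among the leading genes of the type 1-like cluster, at 259 CPM, and stood at 337 CPM in an unnamed cluster of 17 cells. Both levels lie above the 103 CPM of the cluster of 195 cells. The cluster of 195 cells was led by Cfd, Car3 and Hp, and the part of RNA from other cells in these was not tested. By score it matched the type 2 list best, with a mean log2 excess of 1.48 and 7 of 8 markers raised, above the 1.35 and 0.877 of both clusters named type 2-like, and Cd209a, a type 2 marker, stood at 1239 CPM. Since markers of another list were among its leading genes, it is called the Cd207 cluster here, given no cell type name and kept out of the dendritic-like cells. The type 2-like group is not free of these genes either, since its cluster of 139 cells led by Slc27a3 and Mmp12 had Epcam at 21.6 CPM and Cd207 at 43.9 CPM, beside Cd209a at 1425 CPM.

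**Figure D1:**
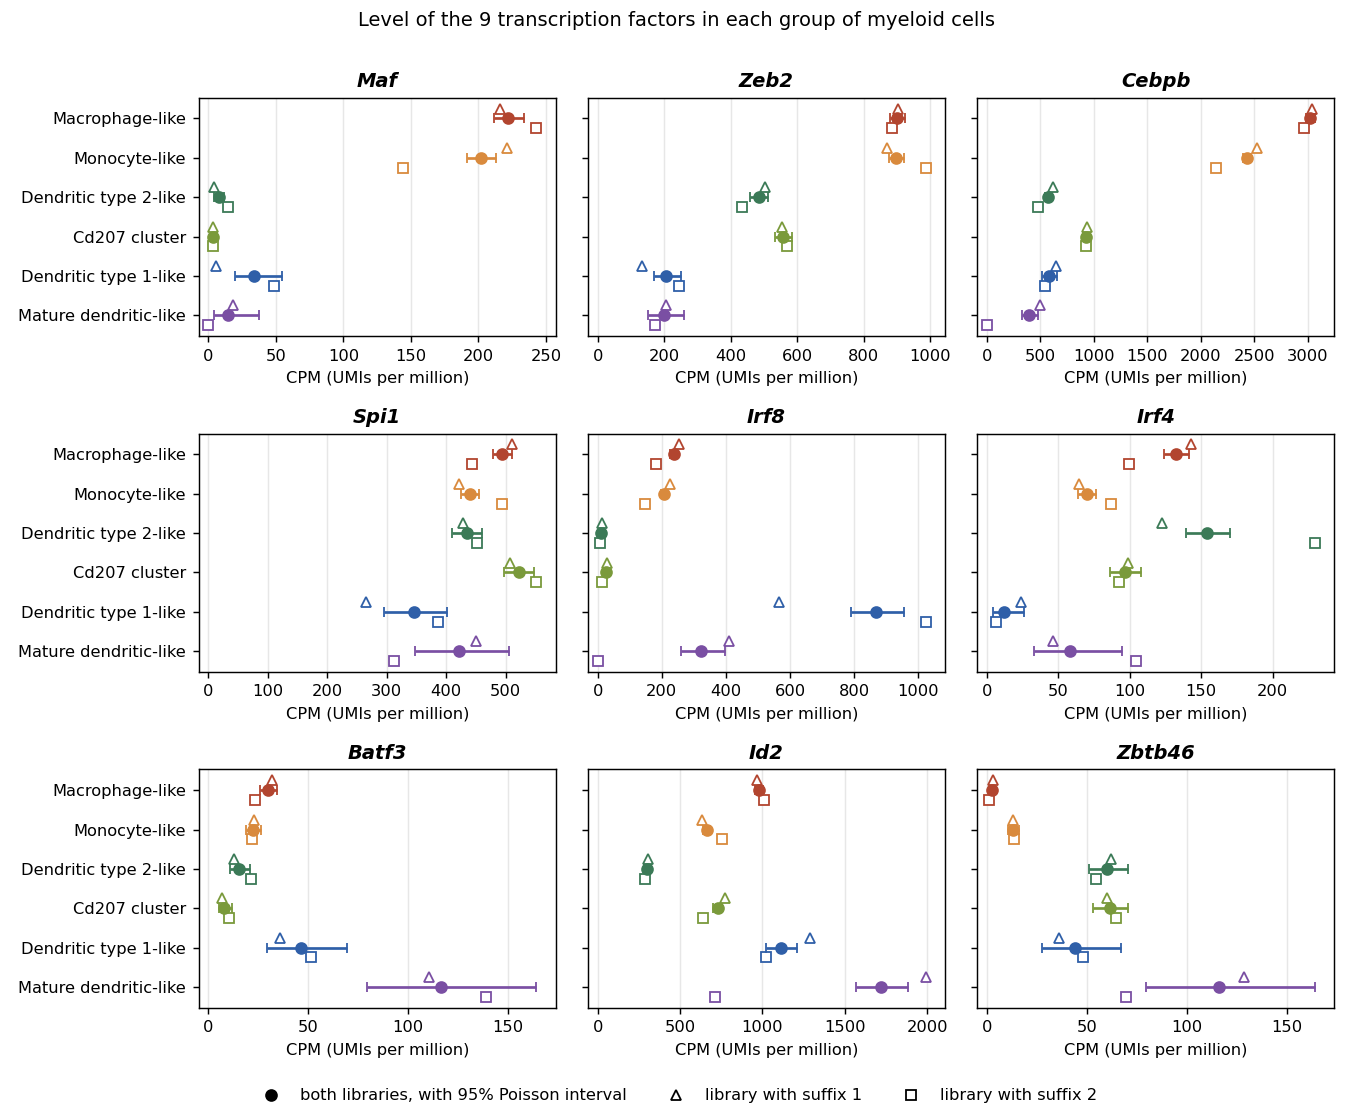
Level of each of the 9 factors, in CPM on the x axis, in the 6 groups of myeloid cells on the y axis. Large points are both libraries together with exact 95% Poisson intervals, and small points are the libraries with suffix 1 and suffix 2. Maf falls from 222 CPM in macrophage-like cells to 3.40 CPM in the Cd207 cluster, Irf8 peaks at 870 CPM in the dendritic type 1-like cells, and Spi1 stays between 346 and 522 CPM.

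Summed over whole groups, Maf was higher in macrophage-like and monocyte-like cells than in every dendritic group. The monocyte-like cluster led by Vcan and Clec4e did not follow, at 13.6 CPM, which lies within the range of the dendritic groups. Maf (ENSMUSG00000055435; GRCm38 chr8:115682942-115707794, minus strand) encodes c-Maf, a leucine zipper factor of resident macrophages. Its level was 222 CPM in macrophage-like cells (95% Poisson interval 211 to 234, 1531 UMIs) and 202 CPM in monocyte-like cells (192 to 213). In dendritic type 2-like cells it was 7.51 CPM (4.52 to 11.7, 19 UMIs), and in the Cd207 cluster 3.40 CPM (1.70 to 6.09, 11 UMIs). All intervals here cover counting error only. By library, macrophage-like cells had 216 CPM with suffix 1 and 243 CPM with suffix 2. The type 2-like cells had 4.49 and 14.7 CPM, so that the groups did not overlap in either library. The Cd207 cluster, at 3.26 and 3.69 CPM, was also far below the macrophage-like cells in both. In type 1-like cells Maf was at 34.1 CPM, but its 17 UMIs lay in 5 of 35 cells and 9 of them in a single cell. The 4 UMIs of the mature dendritic-like cells all came from 1 cell.

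Cebpb and Zeb2 followed the same split less steeply. Cebpb (ENSMUSG00000056501; chr2:167688915-167690418, plus strand) encodes C/EBP-beta, which acts in monocyte survival and inflammatory responses. It stood at 3027 CPM in macrophage-like, 2432 CPM in monocyte-like, 931 CPM in Cd207-cluster and 576 CPM in type 2-like cells, with no overlap of the intervals between neighbours in this order. Macrophage-like cells had 3047 and 2963 CPM in the libraries with suffix 1 and 2, and type 2-like cells 616 and 482 CPM. Both libraries therefore gave the same order for this pair of groups. The 581 CPM of type 1-like cells and the 396 CPM of mature dendritic-like cells rest on few cells, since 112 of 289 and 69 of 109 UMIs came from 1 cell each. All 109 of the mature cells came from suffix 1 (501 CPM), while the 5 cells of suffix 2 held none, which allows up to 52.1 CPM. Zeb2 (ENSMUSG00000026872; chr2:44983632-45117395, minus strand), a repressor that antagonises Id2 in dendritic cell fate, was at 900 CPM in macrophage-like and 898 CPM in monocyte-like cells, which did not differ beyond their intervals. It was at 558 CPM in the Cd207 cluster, 483 CPM in type 2-like, 207 CPM in type 1-like and 200 CPM in mature dendritic-like cells. The type 1-like and mature groups overlapped in their intervals (169 to 251 and 151 to 260 CPM). In the type 1-like cells, 9 of 35 cells held all 103 Zeb2 UMIs and 1 cell held 36 of them.

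Spi1 was the most even of the 9 factors between groups. Spi1 (ENSMUSG00000002111; chr2:91082390-91115756, plus strand) ranged from 346 CPM (296 to 401) in type 1-like cells to 522 CPM (498 to 548) in the Cd207 cluster, with macrophage-like cells at 494 CPM. The type 2-like, monocyte-like and mature dendritic-like cells, at 434, 440 and 422 CPM, did not differ beyond their intervals. Among cells outside the myeloid clusters it stood at 5.68 CPM in fibroblast-like, 3.33 CPM in keratinocyte-like and 46.9 CPM in endothelial-like cells. Id2 (ENSMUSG00000020644; chr12:25093799-25097140, minus strand), an inhibitor that binds E proteins and keeps them off DNA, was found in all groups too. It ranged from 299 CPM (278 to 321) in type 2-like cells through 661 CPM in monocyte-like, 728 CPM in Cd207-cluster, 978 CPM in macrophage-like and 1111 CPM in type 1-like cells to 1722 CPM (1571 to 1885) in mature dendritic-like cells. The mature dendritic-like cells differed between libraries, with 1990 CPM in 15 cells of suffix 1 and 712 CPM in 5 cells of suffix 2. The type 1-like cells had 1286 and 1023 CPM, above the 304 and 287 CPM of the type 2-like cells in both libraries.

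The interferon regulatory factors Irf8 and Irf4 ran in opposite directions between the types of dendritic cells. Their promoters are shown with that of Batf3, the AP-1 family partner of Irf8, because Irf8 and Irf4 had the highest and the lowest log2 ratio of the 9 factors between type 1-like and type 2-like cells. Each run below covers 250 bases before and 50 after the start in RefSeq (GRCm38.p6), given 5′ to 3′ on the gene's strand, and capitals mark matches to a core that PU.1 binds, GAGGAA, or to the promoter box TATAAA. The runs are chr8:120736108-120736407 for Irf8, chr13:30748983-30749282 for Irf4 and chr1:191098164-191098463 for Batf3, all on the plus strand.
Irf8: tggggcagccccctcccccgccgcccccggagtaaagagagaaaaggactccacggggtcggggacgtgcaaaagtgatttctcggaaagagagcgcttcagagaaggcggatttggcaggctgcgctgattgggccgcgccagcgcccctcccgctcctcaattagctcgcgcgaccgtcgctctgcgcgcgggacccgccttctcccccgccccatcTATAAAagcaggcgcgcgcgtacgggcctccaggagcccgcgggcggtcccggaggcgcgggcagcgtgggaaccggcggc
Irf4: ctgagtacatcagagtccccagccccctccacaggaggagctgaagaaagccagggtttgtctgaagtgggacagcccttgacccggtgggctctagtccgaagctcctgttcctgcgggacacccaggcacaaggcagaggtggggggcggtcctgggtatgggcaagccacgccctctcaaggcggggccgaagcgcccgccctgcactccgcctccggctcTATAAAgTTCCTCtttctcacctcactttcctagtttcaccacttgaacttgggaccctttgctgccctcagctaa
Batf3: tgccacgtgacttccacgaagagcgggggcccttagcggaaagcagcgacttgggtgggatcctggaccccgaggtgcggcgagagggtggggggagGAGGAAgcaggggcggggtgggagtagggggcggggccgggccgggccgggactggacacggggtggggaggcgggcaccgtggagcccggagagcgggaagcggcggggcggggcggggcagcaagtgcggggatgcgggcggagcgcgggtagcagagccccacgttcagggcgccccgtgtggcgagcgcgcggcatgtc
The Irf8 run holds TATAAA at bases 220 to 225. A second listed start of Irf8, with the run chr8:120738389-120738688, is not shown and holds none of the matches searched for. The Irf4 run holds TATAAA at bases 225 to 230 and GAGGAA on the opposite strand at bases 232 to 237, printed as its reverse complement. The Batf3 run holds GAGGAA at bases 98 to 103. Both strands were searched, also for GAAANNGAA (an interferon regulatory factor repeat) and TGANTCA (an AP-1 site), which are not in these 3 windows. Of all 32851 promoters of this length in the table, 28.3% hold GAGGAA, 13.6% TATAAA, 8.56% GAAANNGAA and 7.81% TGANTCA, and a match is a description, not a bound site. Promoters of 7 of the 9 factors were matched, and those of Maf and Spi1 were not.

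Irf8 (ENSMUSG00000041515; chr8:120736358-120756694, plus strand) stood at 870 CPM in type 1-like cells (790 to 956), with 433 UMIs in 29 of 35 cells. In type 2-like cells it stood at 11.5 CPM (7.68 to 16.5), with 29 UMIs in 20 of 218 cells. The library with suffix 1 gave 565 and 12.9 CPM, and the library with suffix 2 gave 1023 and 8.01 CPM, so that type 1-like cells were higher in both. This is a log2 ratio of 6.25 (5.70 to 6.84), or 75.9-fold. Irf8 was also present in macrophage-like cells at 237 CPM and in monocyte-like cells at 207 CPM. Mature dendritic-like cells had 323 CPM (260 to 398), all of it from suffix 1 with 409 CPM, while the 5 cells of suffix 2 held no UMI, which allows up to 52.1 CPM. In the Cd207 cluster Irf8 was at 25.4 CPM, and 33 of its 82 UMIs came from 1 cell.

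Irf4 (ENSMUSG00000021356; chr13:30749226-30766976, plus strand), which type 2 dendritic cells use to migrate and to prime helper T cells, was at 154 CPM (139 to 170) in type 2-like cells and at 12.1 CPM (4.42 to 26.2, 6 UMIs) in type 1-like cells. By library the type 2-like cells had 122 CPM with suffix 1 and 230 CPM with suffix 2, and the type 1-like cells 24.0 and 6.03 CPM. Type 2-like cells were thus higher in both libraries, by 12.8-fold in the pooled counts. Irf4 was not particular to dendritic cells, however. Macrophage-like cells had 132 CPM (124 to 141), Cd207-cluster cells 96.6 CPM, monocyte-like cells 69.8 CPM and mature dendritic-like cells 58.1 CPM (33.2 to 94.4).

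Summed over the named groups, Batf3 (ENSMUSG00000026630; chr1:191097847-191108945, plus strand) was highest in mature dendritic-like cells, at 116 CPM (79.5 to 164), followed by type 1-like cells at 46.2 CPM (29.3 to 69.3, 23 UMIs). Macrophage-like and monocyte-like cells had 29.9 and 22.4 CPM, type 2-like cells 15.4 CPM and the Cd207 cluster 8.05 CPM. The intervals of the type 1-like and the macrophage-like cells (26.0 to 34.3 CPM) overlapped, so that Batf3 alone did not set type 1-like cells apart from macrophages here. Macrophage-like clusters ran from 15.9 CPM, led by Vcam1 and Ccl8, to 73.5 CPM (51.2 to 102), led by Jun and Egr1. The unnamed cluster led by Fn1 and Dcstamp stood at 70.8 CPM. The levels of the Jun and Fn1 clusters lie above the 46.2 CPM of the type 1-like cells. By library the type 1-like cells had 36.1 and 51.3 CPM, and the mature dendritic-like cells 110 and 139 CPM.

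The type 1-like cluster was not uniform in these counts, and whether it mixes cell types was not tested. Its 35 cells were divided, after the data had been seen, into 22 cells with a UMI of Xcr1 or Clec9a and 13 cells without. The first had Irf8 at 1089 CPM (981 to 1206) and no UMI of Irf4, which allows up to 8.83 CPM. The second had Irf8 at 399 CPM (306 to 510) and Irf4 at 38.0 CPM (13.9 to 82.6). Zeb2, Maf and Cebpb were higher in the second set, with Zeb2 at 563 against 41.2 CPM, Maf at 82.3 against 11.8 CPM and Cebpb at 1209 against 288 CPM. These values rest on few cells, since 1 cell held 112 of the 191 Cebpb UMIs of the second set, 1 cell held 36 of its 89 Zeb2 UMIs, and its 13 Maf UMIs lay in 2 cells. With cells weighted equally the levels were 381 against 36.2 CPM for Zeb2, 42.6 against 8.93 CPM for Maf and 771 against 289 CPM for Cebpb. Id2 was higher in the first, at 1357 against 582 CPM. Depth also differed, with median counts of 17641 UMIs in the first and 11017 in the second set, and cells with more UMIs are more likely to show a rare one. The cluster as a whole carried 255 CPM of the pericyte and smooth muscle list, of which Rgs5 made up 207 CPM, and C1qa at 597 CPM. The part of RNA from other cells in these values was not tested.

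Zbtb46 (ENSMUSG00000027583; chr2:181387762-181459426, minus strand), a zinc finger gene of conventional dendritic cells, was lowest in macrophage-like cells at 2.47 CPM (1.44 to 3.95), where 16 of 776 cells held its 17 UMIs. It was at 13.3 CPM (10.7 to 16.3) in monocyte-like cells, 44.2 CPM in type 1-like, 60.1 CPM in type 2-like and 61.6 CPM in Cd207-cluster cells, and 116 CPM (79.5 to 164) in mature dendritic-like cells. The type 1-like, type 2-like and Cd207 groups did not differ beyond their intervals. Libraries with suffix 1 and 2 had 2.86 and 1.22 CPM in macrophage-like, 62.3 and 54.7 CPM in type 2-like and 60.1 and 64.5 CPM in Cd207-cluster cells. In both libraries the Cd207 cluster thus stood with the type 2-like cells, far above the macrophage-like cells. The mature dendritic-like cells had 129 CPM with suffix 1 but 69.5 CPM (18.9 to 178, 4 UMIs) with suffix 2, which overlaps the other dendritic groups. Of the 92 UMIs in monocyte-like cells, 84 came from 1 of its 3 clusters, led by Slfn4, at 21.2 CPM. Dendritic markers and depth were higher there too than in the cluster led by S100a9, with Flt3 at 26.7 against 2.69 CPM, Cd209a at 561 against 67.3 CPM, Mgl2 at 684 against 168 CPM, Cd207 at 11.6 CPM against 0 and a median of 21295 against 8652 UMIs. The part of doublets or of dendritic cells in this Zbtb46 level was not tested.

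**Figure D2:**
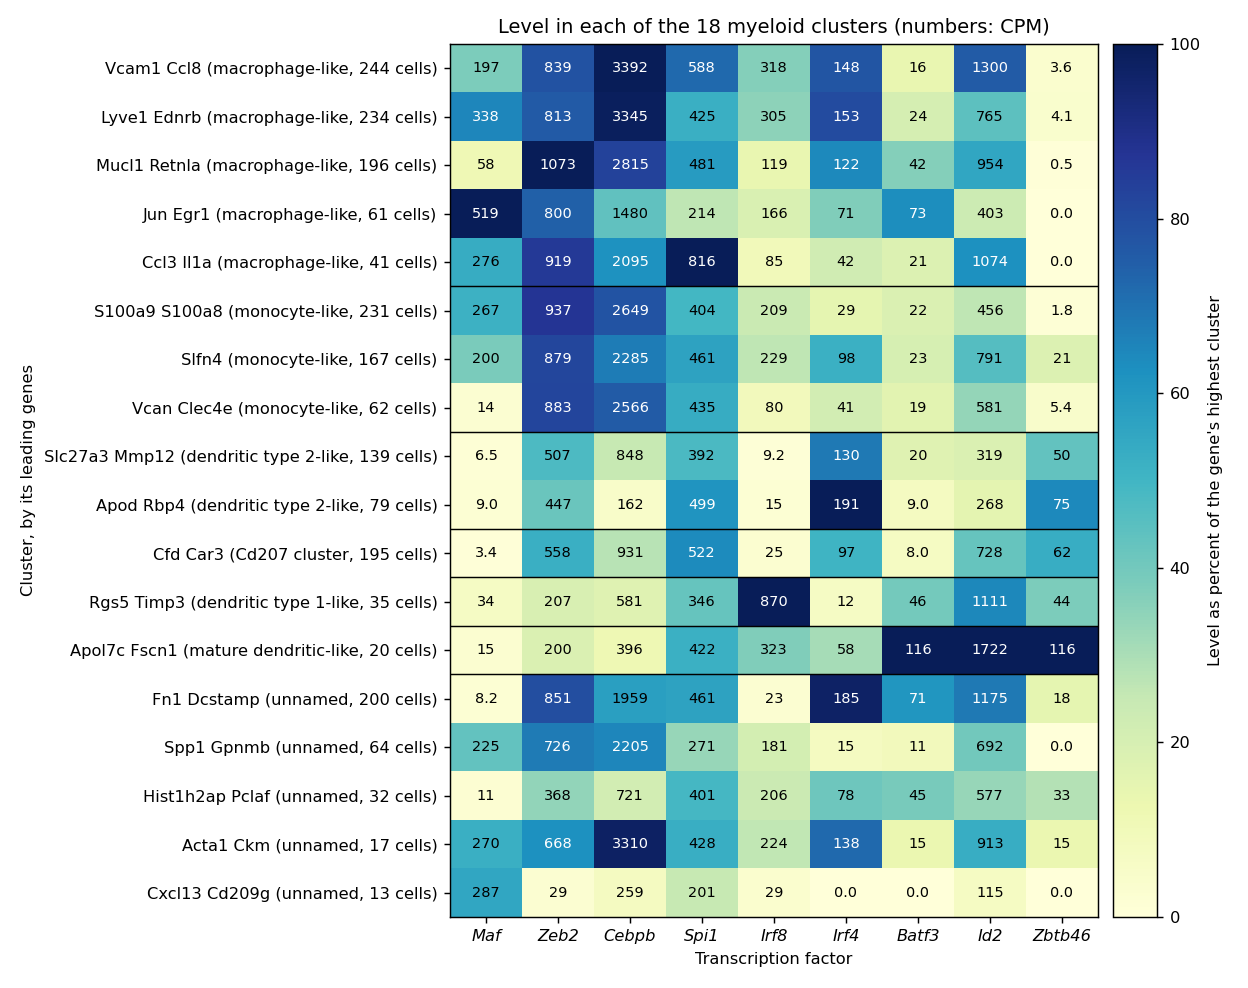
Heat map of the level of the 9 factors (columns) in each of the 18 myeloid clusters (rows, named by 1 or 2 of their leading genes), with CPM printed in each cell. Maf reaches 519 CPM in the cluster led by Jun and Egr1 and 3.40 CPM in the Cd207 cluster, and the cluster led by Fn1 and Dcstamp has Maf at 8.17 CPM beside Irf4 at 185 CPM.

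Within groups the clusters differed as well. Over the 16 clusters of 20 or more cells, Maf ran from 3.40 to 519 CPM with a median of 46.0 CPM, while Spi1 ran only from 214 to 816 CPM. Among macrophage-like clusters, Maf stood at 338 CPM in the one led by Lyve1 and Ednrb, at 197 CPM in the one led by Vcam1 and Ccl8 and at 57.9 CPM in the one led by Mucl1 and Retnla. Its highest level was in the cluster of 61 cells led by Jun and Egr1, genes that tissue dissociation switches on. There the summed level of 10 dissociation genes was 36468 CPM, against 9735 CPM over all macrophage-like cells, and its part in the Maf level was not tested. Among monocyte-like clusters, the one led by Vcan and Clec4e had Maf at 13.6 CPM, against 267 CPM in the one led by S100a9 and 200 CPM in the one led by Slfn4. The type 2-like clusters differed in Cebpb, with 848 CPM in the one led by Slc27a3 and Mmp12 and 162 CPM in the one led by Apod and Rbp4. Irf4 stood at 130.3 CPM in the first and 191 CPM in the second, beside 132 CPM over all macrophage-like cells.

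Between groups, a factor was counted as higher or lower where its pooled CPM differed at least 2-fold, among genes with 10 or more UMIs in both groups together. Monocyte-like over macrophage-like cells gave 1 of 9 factors higher, Zbtb46 with a log2 ratio of 2.43 (1.67 to 3.27), and none lower. Of 11730 genes tested, 11.6% were higher and 7.95% lower by the same rule, so that the factors' share is near this background. Irf4 came closest to 2-fold lower, with -0.92 (-1.09 to -0.76), and -1.15 and -0.20 in the libraries with suffix 1 and 2. The Slfn4 cluster held 390 of the 484 Irf4 UMIs of the monocyte-like cells and had a log2 ratio of -0.43, while the clusters led by S100a9 and by Vcan were past the limit, with -2.21 and -1.70. With cells weighted equally Irf4 stood at 54.3 against 141 CPM and was also past 2-fold, so that its place within the limit depends on the weight of that cluster. The Zbtb46 ratio rests on the Slfn4 cluster, and was 0.13 when a stricter naming left that cluster out.

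All dendritic-like cells together (273) over macrophage-like cells gave Zbtb46 higher and 3 factors lower, namely Maf, Cebpb and Zeb2. The log2 ratios were 4.66 (3.94 to 5.47) for Zbtb46, -4.20 (-4.69 to -3.75) for Maf, -2.43 for Cebpb and -1.11 for Zeb2. The background was 12.8% of 11413 genes higher and 16.0% lower. Zeb2 stood just outside the limit, and fell under 2-fold with a stricter filter on cells, with more variable genes, when cells were gated singly and when cells were weighted equally. Gating also brought Cebpb to -0.98. Irf8 and Irf4 were within 2-fold when pooled but had opposite signs in the libraries, with -1.42 and 0.74 for Irf8 and -0.41 and 0.67 for Irf4. Type 1-like cells made up 12 of 187 dendritic-like cells in the first library and 23 of 86 in the second. The Irf8 ratio also turned with the processing, at 1.16 with resolution 2, -1.19 with the stricter filter and -1.60 with 3000 variable genes. At resolution 2, Irf4 was lower (-1.11) and Batf3 higher (1.08).

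The Cd207 cluster over macrophage-like cells gave Zbtb46 higher (4.64) and 4 factors lower, with log2 ratios of -6.03 (-7.03 to -5.19) for Maf, -3.22 for Irf8, -1.89 for Batf3 and -1.70 for Cebpb. The background was 8.82% of 11155 genes higher and 24.0% lower. Over all dendritic-like cells, the cluster had none higher and 3 lower, Irf8 with -2.72, Maf with -1.83 (-2.94 to -0.84) and Batf3 with -1.82, beside a background of 3.09% and 13.9% of 10333 genes. The Irf8 ratio rests on the type 1-like and mature cells, which held 433 and 89 of the 551 dendritic-like UMIs, while the 218 type 2-like cells, at 11.5 CPM, lay below the 25.4 CPM of the Cd207 cluster. Batf3 rests on them in part, with 23 and 32 of 94 UMIs, and its 15.4 CPM in type 2-like cells is within 2-fold of the 8.05 CPM of the cluster. The Maf ratio rests on 11 and 40 UMIs, was -0.35 with cells weighted equally and in suffix 1 cells was -0.88 (-2.45 to 0.55), under the limit. With cells gated singly by their own markers, Batf3 over macrophage-like cells was at -0.28 (-0.81 with B and plasmacytoid cells kept). Gating brought the ratios over dendritic-like cells to -0.40 for Irf8 and -0.95 for Batf3. Cebpb over dendritic-like cells was within 2-fold (0.73), but higher at resolution 0.5 (1.30) and resolution 2 (1.55). It was also higher (1.17) with cells of a doublet score of 0.2 or more removed.

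Type 1-like over type 2-like cells gave 4 of 9 factors higher and 2 lower, against 14.2% and 11.9% of 9098 genes. Irf8 (6.25), Maf (2.18), Id2 (1.89) and Batf3 (1.58) were higher, and Irf4 (-3.68, interval -5.13 to -2.54) and Zeb2 (-1.22) lower. Zeb2 had -1.93 with suffix 1 and -0.83, under the limit, with suffix 2. It was also under 2-fold at resolution 0.5 (-0.82) and with 3000 variable genes (-0.64), which brought Irf4 to -0.86 and Id2 to 0.51, and Id2 was at 0.86 with the stricter filter. Batf3 was at 0.56 at resolution 2. Cebpb, within 2-fold in the main groups (0.011), was at 1.75 at resolution 0.5, at 2.11 at resolution 2 and at -1.88 with the stricter filter. The Maf difference dropped to 0.65 with the 22 cells that had a UMI of Xcr1 or Clec9a alone and to 0.42 in the library with suffix 1. When each cell was gated by its own markers, 108 cells became type 1-like, Irf4 was at -0.34, and Irf8 alone stayed past 2-fold (1.79). Mature dendritic-like over type 2-like cells gave 3 higher, Irf8 (4.82), Batf3 (2.92) and Id2 (2.53), and 2 lower, Irf4 (-1.41) and Zeb2 (-1.27), against a background of 15% and 18.1% of 8846 genes. The 89 Irf8 UMIs all came from suffix 1, and suffix 2 gave no call for it. These values rest on 20 cells, and with cells gated singly all 5 factors were within 2-fold (Irf8 at 0.098). Irf4 was also under it with the stricter filter (-0.59) and with 3000 variable genes (-0.91), and Zeb2 with B and plasmacytoid cells kept (-0.99). Cebpb was within 2-fold (-0.54), but lower with cells weighted equally (-1.15) and higher at resolution 0.5 (1.29) and resolution 2 (1.56). Maf, at 0.95 in the main groups, ran from 2.48 with the stricter filter to -3.03 with cells gated singly.

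**Figure D3:**
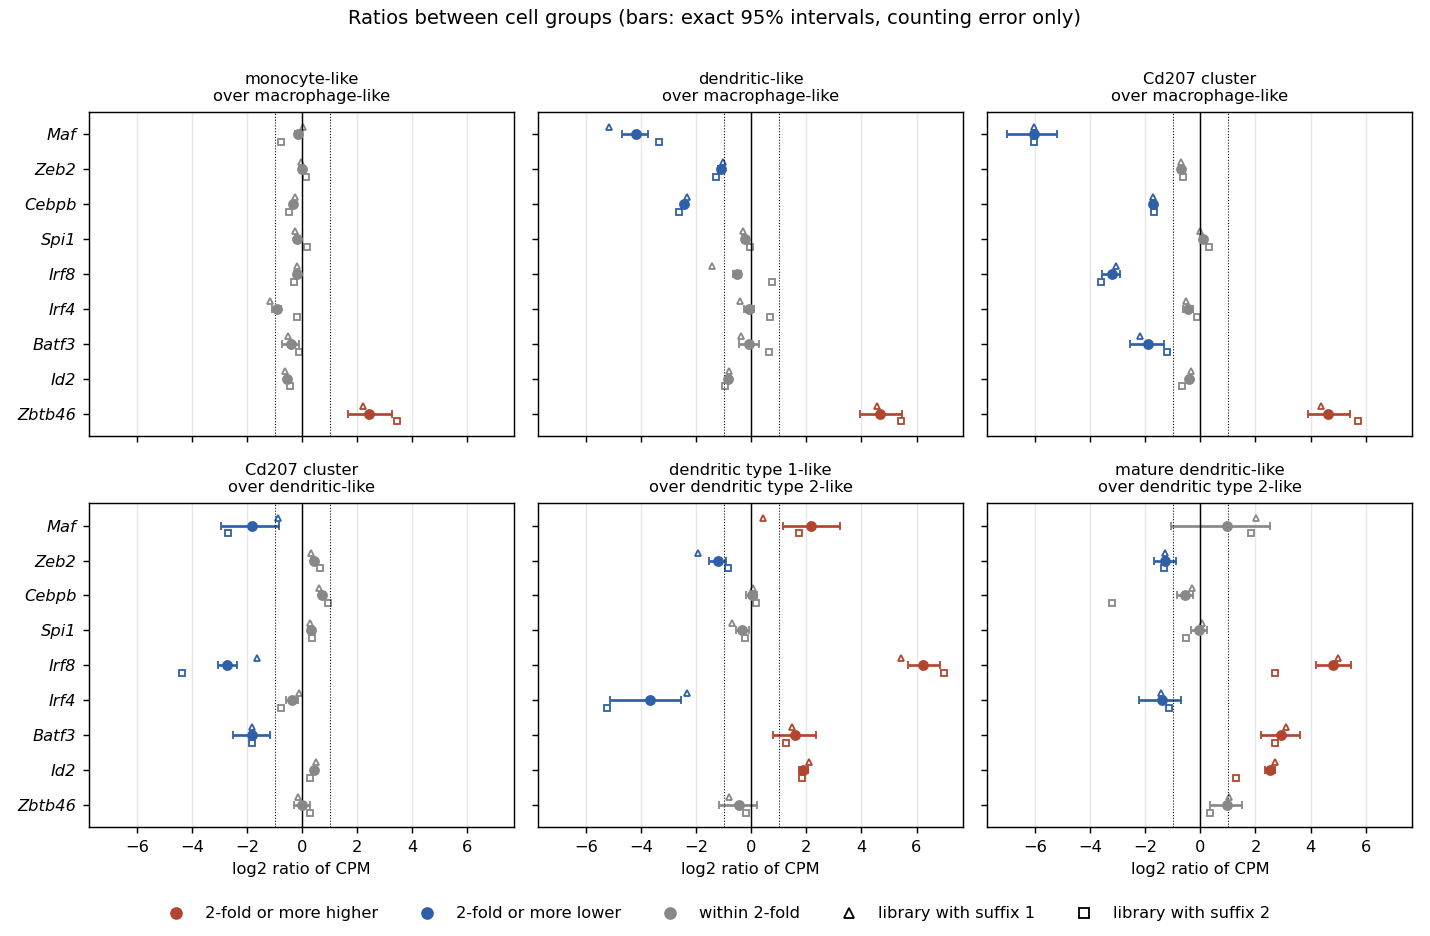
Log2 ratio of CPM (x axis) of each of the 9 factors (y axis) for the 6 comparisons of groups, with exact 95% intervals for both libraries together and a point for each library. Dotted lines mark 2-fold. A library point with no UMI in a group was drawn as an upper limit with 3 counts in its place, which concerns Maf, Irf8 and Cebpb in the 5 mature dendritic-like cells of suffix 2. The largest ratio is 6.25 for Irf8 in type 1-like over type 2-like cells, and the lowest -6.03 for Maf in the Cd207 cluster over macrophage-like cells.

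A wider list of 45 lineage factors, 24 of macrophages and monocytes and 21 of dendritic and Langerhans cells, was counted in the same way. The list was chosen with earlier results of these data known, so that its counts beside those of all genes are a description only. In dendritic-like over macrophage-like cells, 8 of the 20 dendritic factors tested were higher and 1 lower, with a median log2 ratio of 0.59 against -0.03 for all genes. Of the 24 macrophage factors, 1 was higher and 5 lower, with a median of -0.45, where 12.8% of all genes were higher and 16.0% lower. Among the dendritic factors, Bcl11a, a zinc finger gene of dendritic cells, stood at 32.1 against 0.290 CPM, Zfp366, the DC-SCRIPT gene, at 27.6 against 0.436 CPM, and Nr4a3, an orphan receptor gene of migrating dendritic cells, at 1068 against 82.3 CPM. Runx3, a gene Langerhans cells need, stood at 153 against 24.0 CPM, and Stat5a, which relays GM-CSF signals, at 68.7 against 29.6 CPM. Among macrophage factors, Bhlhe41 (0.908 against 23.7 CPM) and Cebpd (58.7 against 123 CPM) were lower, while Bhlhe40 (111 against 32.4 CPM) was higher. By library, Stat5a was under 2-fold with suffix 1 (0.95) and Cebpd with suffix 2 (-0.78).

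In the Cd207 cluster over macrophage-like cells, 9 of 20 dendritic factors were higher and 14 of 24 macrophage factors lower, with medians of 0.64 and -1.34 against -0.25 for all genes, of which 8.82% were higher and 24.0% lower. Zfp366 (6.34), Nr4a3 (3.27), Runx3 (3.13), Bhlhe40 (2.47), Stat5a (1.86) and Ahr (1.66), the aryl hydrocarbon receptor gene, had the highest log2 ratios. Among the lowest were Bhlhe41 (-6.26, 1 UMI in the cluster), Egr2 (-4.29), Klf2 (-2.61), Atf3 (-2.34) and Klf4 (-1.98). Egr2 and Atf3 answer to stress and dissociation, and the 10 dissociation genes summed to 3126 CPM in the cluster against 9735 CPM in macrophage-like cells, a part that was not tested. Over the dendritic-like cells the cluster had 1 factor higher, Batf (141 against 56.3 CPM), an AP-1 relative of Batf3, and 11 lower of 42 tested, where 3.09% of all genes were higher and 13.9% lower. Among these were Irf7 at 5.88 against 30.9 CPM, Irf1 at 16.7 against 54.5 CPM, and Egr2, Klf2, Klf4 and Atf3 again. Of the 102 Irf7 UMIs in dendritic-like cells, 52 came from type 1-like and 37 from mature cells, and the type 2-like cells stood at 5.14 CPM, no higher than the Cd207 cluster. Irf1 stood at 29.3 CPM in type 2-like cells, within 2-fold of the cluster.

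In monocyte-like over macrophage-like cells, 9 of 44 factors of the list were higher and 5 lower. Beside the 11.6% and 7.95% of all genes, the lower count is near the background. The interferon response factor Irf7 led, at 531 against 21.2 CPM. Also higher were Runx3 (169 against 24.0 CPM), Nr1h3, the LXR-alpha gene (39.8 against 9.00 CPM), Nr4a3 (245 against 82.3 CPM) and Bhlhe40 (84.4 against 32.4 CPM). With cells weighted equally Nr4a3 was at 163 against 86.2 CPM, under 2-fold. Bhlhe41, Atf3, Egr2 and Cebpd were lower, with log2 ratios of -2.60, -1.45, -1.18 and -1.13. Atf3 and Egr2 were among the leading genes of the macrophage-like cluster led by Jun and Egr1. The part of dissociation in their ratios was not tested.

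Between dendritic types, type 1-like cells had 6 of the 41 tested factors higher and 11 lower than type 2-like cells. Of all genes 14.2% were higher and 11.9% lower, so that the higher count is near the background. Irf7 (4.35), Irf1 (1.27) and Tcf7l2 (1.26) were among the higher ones, on 16 to 52 UMIs. By library Irf7 was at 6.06 with suffix 1 and at 2.76 with suffix 2. With cells weighted equally Irf1 (62.0 against 32.7 CPM) and Tcf7l2 (28.2 against 16.4 CPM) were under 2-fold. Egr2 (-2.30), Klf4 (-2.03), which type 2 dendritic cells need, Nr4a3 (-2.01), Atf3 (-1.92), Tcf4 (-1.86) and Rel (-1.70) were lower, with Egr2 at -0.64 in suffix 1 and -4.47, on 1 UMI, in suffix 2. The part of dissociation in these ratios was not tested. Mature dendritic-like cells had 8 of 40 higher and 12 lower, again relative to type 2-like cells, where 15% of all genes were higher and 18.1% lower. Among the higher ones were Irf7 (4.71), Irf1 (3.14), Relb (2.36), the NF-kappa-B gene of dendritic cell maturation, Bhlhe40 (2.20) and Tcf7l2 (1.92). All 37 Irf7 UMIs of the mature cells came from suffix 1, and the mature cells of suffix 2 held none. Irf1 was at 3.52 with suffix 1 and at 1.27 (-0.46 to 2.67) with suffix 2. Lower were Runx1 (-3.47), Bcl11a (-3.37, 1 UMI), Klf4 (-3.11), Tcf4 (-2.68), Nr4a1 (-2.39) and Ahr (-2.32).

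Cells with a UMI of a factor were also counted, at equal depth. Each cell was thinned to 2000 UMIs, and shallower cells were left out (30 of 776 macrophage-like, 22 of 460 monocyte-like, 9 of 218 type 2-like and 1 each of the Cd207 and type 1-like cells). Maf was then found in 30.6% of macrophage-like cells (exact 95% interval 27.3 to 34.0) and 31.7% of monocyte-like cells, against 59.8% and 65.0% before thinning. It was found in 0.957% of type 2-like and 1.03% of Cd207-cluster cells, which lies below the 9.42% of fibroblast-like and 15.2% of keratinocyte-like cells, whose median depths were 13074 and 22854.5 UMIs against 8961 UMIs in macrophage-like cells. The fibroblast-like and keratinocyte-like cells carry Maf themselves, at 56.97 and 144 CPM, so that they set no background level, and the part of free RNA in the low shares was not tested. Irf8 was found in 67.6% of type 1-like cells (49.5 to 82.6), 29.4% of macrophage-like, 1.91% of type 2-like and 4.12% of Cd207-cluster cells, against 3.74% of fibroblast-like and 16.8% of endothelial-like cells. The type 2-like and Cd207 shares did not lie above the fibroblast-like one beyond their intervals, while the endothelial-like cells carry Irf8 themselves at 119 CPM. Irf4 was found in 21.1% of type 2-like, 20.1% of macrophage-like, 15.5% of Cd207-cluster, 9.82% of monocyte-like and 5.88% of type 1-like cells, against 2.19% of fibroblast-like cells. The type 1-like share came from 2 of 34 cells, and its interval (0.720 to 19.7) reached the fibroblast-like share.

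Zbtb46 was found in 0.536% of macrophage-like, 2.51% of monocyte-like, 22 of 209 type 2-like cells, 11.9% of Cd207-cluster and 4 of 20 mature dendritic-like cells. Fibroblast-like cells had 0.258%, and endothelial-like cells, at a median of 9328 UMIs, 5.28%. The intervals of the macrophage-like (0.146 to 1.37) and fibroblast-like (0.0313 to 0.929) shares overlapped, while endothelial-like cells carry Zbtb46 themselves at 29.3 CPM. Batf3 was found in 6 of 20 mature dendritic-like cells (interval 11.9% to 54.3%), 8.82% of type 1-like, 5.76% of macrophage-like and 1.03% of Cd207-cluster cells, against 0.258% of fibroblast-like and 2.17% of endothelial-like cells. Spi1 was found in 35.3% to 67.0% of the cells of the 6 groups, and in 0.774% of fibroblast-like cells. Cebpb was found in 709 of 746 macrophage-like cells and 46.4% of type 2-like cells, but also in 81.7% of fibroblast-like cells, so that it did not mark myeloid cells in this tissue. Zeb2 was found in 77.7% of macrophage-like, 52.2% of type 2-like and 11.8% of type 1-like cells, against 35.5% of fibroblast-like cells and 0 of 66 keratinocyte-like cells (at most 4.55%). Id2 was found in 59.2% of macrophage-like, 31.1% of type 2-like and 64.7% of type 1-like cells, against 15.2% of fibroblast-like cells.

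**Figure D4:**
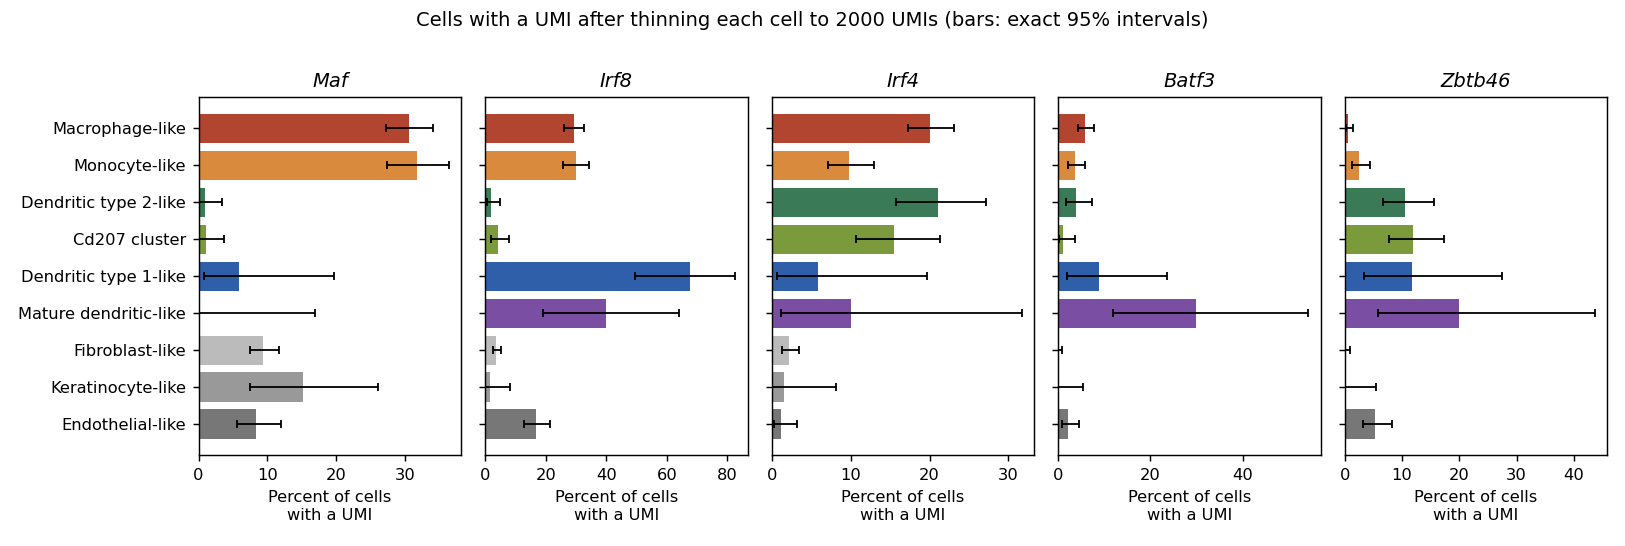
Percent of cells with a UMI of each factor (x axis) after thinning to 2000 UMIs per cell, in the 6 myeloid groups and in fibroblast-like, keratinocyte-like and endothelial-like cells (y axis), with exact 95% Clopper-Pearson intervals. Maf in type 2-like cells (0.957%) lies below the 9.42% of fibroblast-like cells, and Irf8 in type 1-like cells (67.6%) lies above every other group.

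Pairs of factors were also counted in single cells. Over all thinned myeloid cells, Maf and Zbtb46 were found together in 7 of 1961 cells (0.357%, 0.144 to 0.734), while the product of the single shares is 0.855%. Without thinning they were found together in 72 of 2030 cells (3.55%, product 7.47%). The pooled cells mix groups that differ in both factors. Thinned monocyte-like cells had both in 5 of 438 cells (1.14%, product 0.797%) and macrophage-like cells in 1 of 746 (0.134%, product 0.164%), and unthinned ones in 9.35% (product 7.77%) and 1.55% (product 1.23%). Irf8 and Irf4 were found together in 2 of 263 dendritic-like cells (0.760%, 0.0922 to 2.72), against a product of 2.43%. Within the type 2-like cells alone, 0 of 209 cells had both, against a product of 0.403%, too few to compare. In macrophage-like cells 44 of 746 had both (5.90%), equal to the product of 5.90%. Irf8 and Batf3 were found together in 3 of 34 type 1-like cells (8.82%, product 5.97%), and all 3 thinned cells with Batf3 there also held Irf8. In sparse counts these shares are a description only.

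**Figure D5:**
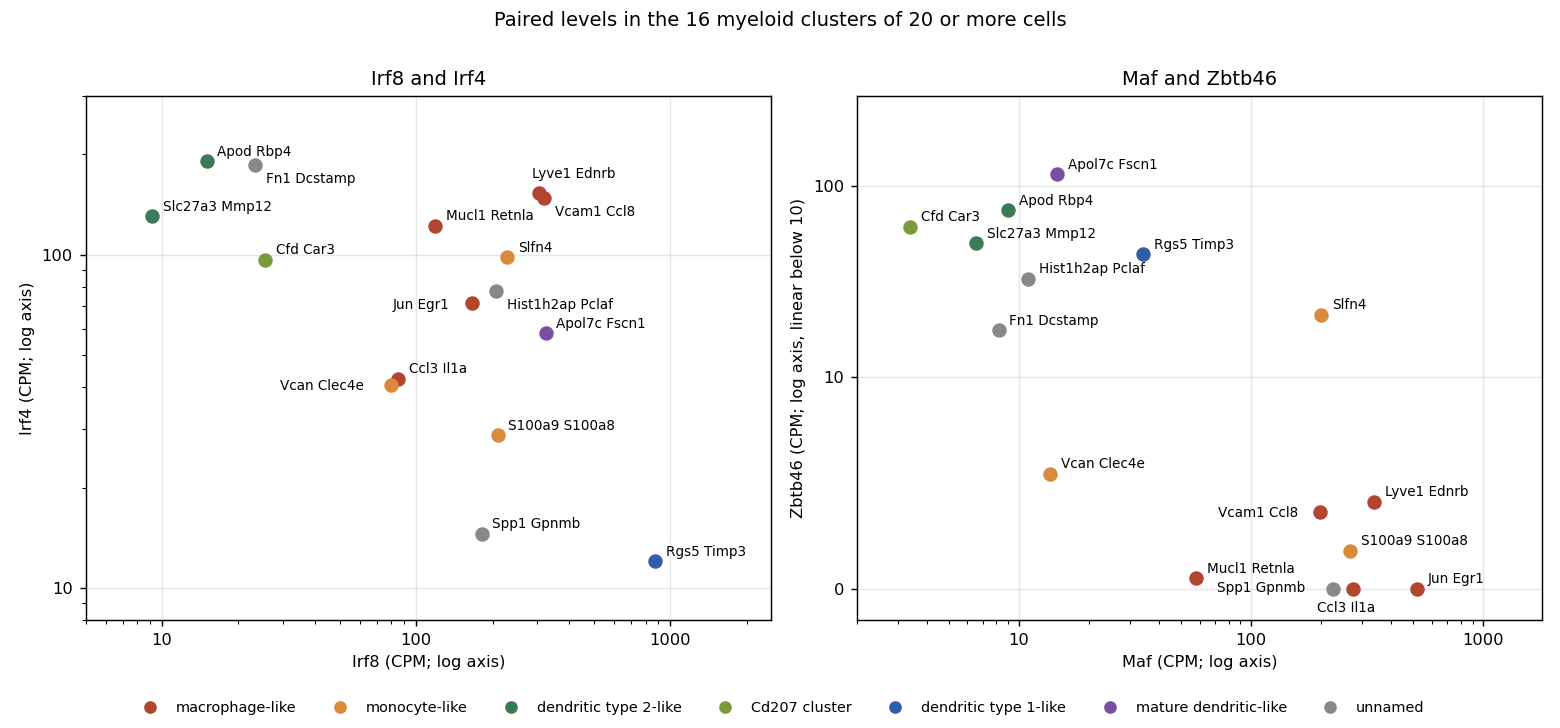
Levels (CPM, on the axis scales named in each panel) of pairs of factors in the 16 myeloid clusters of 20 or more cells, one point per cluster coloured by group. Clusters high in Maf are low in Zbtb46, save the one led by Slfn4 (200 and 21.2 CPM), and the dendritic type 1-like cluster stands alone with Irf8 at 870 CPM and Irf4 at 12.1 CPM.

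Over the 18 clusters, the levels of Maf and Zbtb46 ran against each other, with a Pearson r of -0.76 on log2(CPM + 10), and Cebpb and Zeb2 ran together, with r of 0.77. All points come from the same pair of libraries and differ in depth, and the values are a description over 18 clusters. Among them is an unnamed cluster of 13 cells in which Zeb2 had 1 UMI (28.7 CPM). In the 16 clusters of 20 or more cells the lowest Zeb2 level was 200 CPM. Irf4, Batf3 and Zbtb46 had 0 UMIs in that small cluster, and its part in the r values here was not tested. Among 8102 genes at 20 CPM or more in a cluster, those most like Maf were Wwp1 (r 0.95), Ms4a7 (0.95), a marker used to name the macrophage-like cells, and Gna12 (0.94). Zbtb46 was most like Rhof (0.95), Sema7a (0.94) and Tmtc2 (0.94), and Zeb2 most like Lilr4b (0.98) and Mapk6 (0.96). Cebpb was closest to Por (0.93), Tbc1d2b (0.91) and Ralgds (0.91), Spi1 to Ehd1 (0.90), Phldb1 (0.90) and Nfkb1 (0.89), and Irf4 to Tnip2 (0.90), Samd4b (0.87) and Trim36 (0.86). The nearest genes were Agpat3 (0.81), Rcc2 (0.76) and Iigp1 (0.76) for Irf8, Ptprs (0.87), Irf1 (0.80) and Plaat3 (0.79) for Batf3, and Ubash3b (0.88), Jdp2 (0.86) and Pik3r5 (0.83) for Id2.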

How the data were processed

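UMI counts, whole numbers without normalization, were made by the authors with Cell Ranger 4.0.0 from 10x 3' libraries and deposited in 1 matrix. The gene annotation and any earlier cell filter were not given in the sources used here. Libraries hold 35821853 and 20382748 UMIs over 5257 barcodes. They share 1 barcode sequence, which no analysed cell carries. Groups follow the labels, which give 1 library per age, but no label ties a suffix to an age, so the comparison of ages was not made.

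The filter on cells required 500 genes, 1000 UMIs and no more than 10% mitochondrial UMIs, which 3797 barcodes met. The analysis used scanpy 1.11.5, scipy 1.17.1, numpy 2.4.6 and pandas 2.3.3 in Python 3.11.15. Scrublet called 6 doublets, so few that doublets count as untreated. Leiden clustering (leidenalg 0.10.2, igraph 0.11.9, resolution 1, 2000 variable genes, 30 components, 15 neighbours, seed 1) left out the 9 factors and the list of 45. A cluster took the name of the marker list with the highest mean log2 excess, with 3 or more raised markers and a lead of 0.3 over the next myeloid list. Clusters stayed unnamed where another list led, where 2 or more of their 10 leading genes, and more than of their own list, were markers of another list (the Cd207 cluster), or where the median UMI count was low and no leading gene was a marker (13 cells). The naming rule, the removal of 9 B or plasmacytoid cells and the use of the Cd207 cluster in place of Langerhans-like cells were set after the clusters had been seen. UMIs were summed per group, with exact 95% Poisson intervals, exact intervals for ratios and exact Clopper-Pearson intervals for shares. A sum of 0 took 3 counts in a ratio or limit, and such a ratio was called only where the limit itself was past the fold. Scripts were tested on simulated data. Levels of different genes are not compared, since 3' counts are not scaled to length.

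The members and lists were chosen with earlier results of these data known. Named are the 9 factors, from the list the 6 largest ratios in each direction among those past 2-fold at 20 CPM or more in the higher group, the 3 genes most like each factor, and markers. Positions are from GENCODE vM21 (GRCm38), matched by gene identifier. A few genes that these rules name are not reported here. Alternatives changed the cell filter, resolution, variable genes, doublets, naming, gating, libraries, weighting, fold limit and thinning.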

Additional observations from a re-analysis of the deposited data

Results flagged for a closer look

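The 9 factors were also found in the 1460 barcodes that the filter left out, with 5403713 UMIs in all. Their levels there were 88.3 CPM for Maf, 57 CPM for Spi1, 59.96 CPM for Irf8, 22.9 CPM for Irf4, 7.03 CPM for Batf3, 336 CPM for Zeb2, 788 CPM for Cebpb, 374 CPM for Id2 and 13.1 CPM for Zbtb46. In the myeloid cells together they were higher in every case, with 128, 459, 162, 111, 29.9, 763, 2045, 806 and 23.6 CPM in the same order. The left-out barcodes were not grouped.

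In 3 ratios the libraries had opposite signs with both counting intervals clear of 0, and the difference between libraries was not tested. Other ratios with opposite signs had an interval that held 0 in at least 1 library. Spi1 in monocyte-like over macrophage-like cells had a log2 ratio of -0.27 with suffix 1 and 0.16 with suffix 2. Irf8 in dendritic-like over macrophage-like cells had -1.42 with suffix 1 and 0.74 with suffix 2. Irf4 in the same comparison had -0.41 with suffix 1 and 0.67 with suffix 2.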

How the results depend on the processing

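No paired analysis was possible because each age has 1 library and no test was made. Of the 54 ratios, 24 passed 2-fold. Over all alternatives these gave 313 values, of which 271 stayed past 2-fold in the same direction, 37 fell under it and 4 changed sign. For 1, Irf8 in mature over type 2-like cells of suffix 2 alone, 0 UMIs in the mature cells gave no call. Some settings, such as keeping only type 1-like cells with a UMI of Xcr1 or Clec9a, left most groups unchanged. The tally therefore includes values that could not move. Changed in sign were, with the stricter filter (1000 genes, 2000 UMIs, 5% mitochondrial), Zbtb46 in monocyte-like over macrophage-like cells (-0.37) and Zeb2 in mature dendritic-like over type 2-like cells (0.069), and, with cells gated singly, Maf in the Cd207 cluster over dendritic-like cells (0.14) and in type 1-like over type 2-like cells (-0.070). The causes were not tested.

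Counts of factors past 2-fold in either direction were, in the order of the comparisons in the report, 1, 4, 5, 3, 6 and 5 of the 9 factors and 14, 15, 25, 12, 17 and 20 of the list of 45. Of the list, 44, 44, 44, 42, 41 and 40 factors were tested, in the same order. The share of all genes past the limit was counted for the main groups at 2-fold only. The counts that follow have no such background beside them and are a description. Gating changed the most, to 2 of the 9 in dendritic-like over macrophage-like cells, 15 of the list in the Cd207 cluster over macrophage-like cells, 0 of the 9 and 3 of the list in that cluster over dendritic-like cells, 1 and 3 in type 1-like over type 2-like cells, and 3 of the 9 in mature over type 2-like cells. With 3000 variable genes, type 1-like over type 2-like cells had 2 and 5. A limit of 1.5-fold gave 23, 24, 19 and 28 of the list in monocyte-like over macrophage-like, dendritic-like over macrophage-like, Cd207 over dendritic-like and type 1-like over type 2-like cells, and a limit of 3-fold gave 8, 8, 6 and 11, with 3 of the 9 in mature over type 2-like cells. Resolution 2 gave 7 of the 9 in dendritic-like over macrophage-like cells, and 5 of the 9 and 22 of the list in the Cd207 cluster over dendritic-like cells, where resolution 0.5 gave 7 of the list. The stricter filter gave 24 of the list in dendritic-like over macrophage-like and 12 in mature over type 2-like cells. A naming lead of 0.5 gave 8 of the 9 in mature over type 2-like cells. In monocyte-like over macrophage-like cells Zbtb46 was joined by Maf and Irf8, making 3, with the looser filter (200 genes, 500 UMIs, 20% mitochondrial), by Maf, making 2, with 3000 variable genes, and by Irf4, making 2, with suffix 1 alone, resolution 2, a lead of 0.1, a limit of 1.5-fold or cells weighted equally. The 2 factors with a lead of 0.5 were Irf4 (-2.06) and Id2 (-1.01), without Zbtb46. Irf4 in place of Zbtb46 was past 2-fold with the stricter filter (-2.01) and with gating (-1.28).

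No Cd207 cluster formed with either other filter or with 3000 variable genes, and no type 1-like cluster with the looser filter or with B and plasmacytoid cells kept, so that comparisons that need them gave no value there. The naming leads, the kept B and plasmacytoid cells and the Xcr1 or Clec9a cells were chosen after seeing the data. The 35 type 1-like and 20 mature cells are few, and single cells there hold much of a factor's UMIs.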

Other observations

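The largest cluster without a name held 200 cells, 164 of suffix 1 and 36 of suffix 2, led by Fn1 and Dcstamp, a gene of cell fusion. Its factors matched no named group. Maf stood at 8.17 CPM and Irf8 at 23.3 CPM (18.4 to 29.1), which is 27.2-fold and 10.2-fold below the macrophage-like cells, while Cebpb at 1959 CPM and Zeb2 were within 2-fold of them. Irf4 stood at 185 CPM, Batf3 at 70.8 CPM (62.0 to 80.5) and Zbtb46 at 17.6 CPM (13.3 to 22.7). Among markers, Mgl2 stood at 626 CPM and Cd209a at 518 CPM, C1qa at 153 CPM, and Flt3 at 2.72 CPM and Ly6c2 at 2.42 CPM.

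Outside the myeloid clusters, Maf stood at 211 CPM in 126 Schwann-like, 196 CPM in 34 T cell-like and 144 CPM in 68 keratinocyte-like cells. Irf8 stood at 119 CPM in endothelial-like and 126 CPM in pericyte-like cells, and Zbtb46 at 29.3 CPM and 27.2 CPM in these. Cebpb stood at 2412 CPM in fibroblast-like cells.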
